A study of Mus musculus with 6 samples.

Results

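The axon guidance genes of the mouse spinal cord were followed into the third day after a crush injury. They comprise the semaphorins, ephrins, Slits and netrins, the receptors that read them, and their close partners. Members were taken by name: semaphorins of classes 3 to 7 (Sema3 to Sema7), plexins, neuropilins, Eph receptors, ephrins A and B, Slit1 to Slit3, Robo1 to Robo4, Ntn1 to Ntn5 and the netrin-G genes, Unc5a to Unc5d, Dcc, Neo1, Rgma, Rgmb and Draxin. This gave 75 genes of the 36629 in the files, 40 of them ligands or ligand-like and 35 receptors. Of these, 71 reached 1 FPKM (fragments per kilobase of transcript, scaled to library depth, so that levels of genes can be compared) in 3 or more of the 6 libraries and were tested. Epha1, Epha3, Robo3 and Draxin did not. Membership followed from names alone, by a rule that was chosen with earlier results of these data known.

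Guidance molecules steer growing axons and migrating cells by attraction or repulsion, and many stay on in the adult cord. Semaphorins signal through plexins, with neuropilins as binding partners for most secreted class 3 members; ephrins are membrane-bound and signal through Eph receptor tyrosine kinases, and can also signal backwards into the cell that carries them. Slits repel through Robo receptors, and netrins attract through DCC or repel through UNC5 receptors. Several of them, among them Sema3a and the ephrin receptor Epha4, are known in the injured cord for limiting axon regrowth, and a further set (Ephb4 with Efnb2, Plxnd1, Robo4, Nrp1) is known for patterning blood vessels.

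Both groups were C57/BL6 mice aged 3 to 5 weeks in which a laminectomy at T9 and T10 laid the cord bare. In the sham group (3 libraries) the surgery ended there, although the treatment field of its labels reads untreated. In the SCI group (spinal cord injury, 3 libraries) a vascular clip was then closed on the cord to crush it. RNA came from segments T8 to T12 taken 3 days after surgery, so each SCI library held the crush site together with cord above and below it. The labels do not say whether a library came from 1 animal or from pooled animals, so the p-values measure only the spread between these libraries, which may be technical.

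The deposited FPKM summed to 716215 to 734791 per library, and the depth in reads is unknown. Guidance genes took 0.139% to 0.150% of that sum in the sham group and 0.119% to 0.135% after injury. The libraries carried spinal cord markers, with Gfap, Mbp, Snap25 and Chat all at 13.3 FPKM or more on average in sham. SCI replicate 2 stood apart with 6.16% of its FPKM in haemoglobin genes, against 0.109% to 0.656% in the others, and it had the lowest sum of neuronal markers. SCI replicate 3 stood apart in 2 genes of sensory ganglion neurons, with Avil at 17.3 FPKM against 0.15 to 0.50 elsewhere and Scn10a at 6.60 against 0 in the 5 other libraries.

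More guidance genes were lower than higher in the injured cord. Of the 71 tested, 32 (45.1%) were lower, 17 (23.9%) were higher and 22 did not pass limma at a Benjamini-Hochberg adjusted p under 0.05. Over all 17435 genes tested, 30.8% were lower and 26.7% were higher, 57.5% in all. The median log2 change of the tested guidance genes was −0.27, and that of all genes tested was −0.08 (SCI minus sham on log2(FPKM + 1), the scale of every log2 change given here). Ligands had 10 of 39 higher and 16 lower (median −0.22), and receptors had 7 of 32 higher and 16 lower (median −0.33). Of the 71, 8 (11.3%) were called with a log2 change of at least 1 and 5 (7.04%) with one of at most −1, shares near the 11.0% and 5.19% of all genes tested. Efna4, Ntn5 and Epha6 met the filter through 1 group only, where they are high, and so had to differ; their values are given as a description. Without these 3, 15 of 68 were higher and 31 lower. Of the 8 called with a log2 change of at least 1, 2 (Efna4 and Ntn5) met the filter through the SCI group only. In 17 tested members all SCI libraries lay above all sham libraries, and in 36 all lay below. Efna4 and Ntn5 are among the 17 and Epha6 is among the 36. Over all genes tested the shares were 30.7% and 36.9% (67.6% without overlap in either direction).

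**Figure D1:**
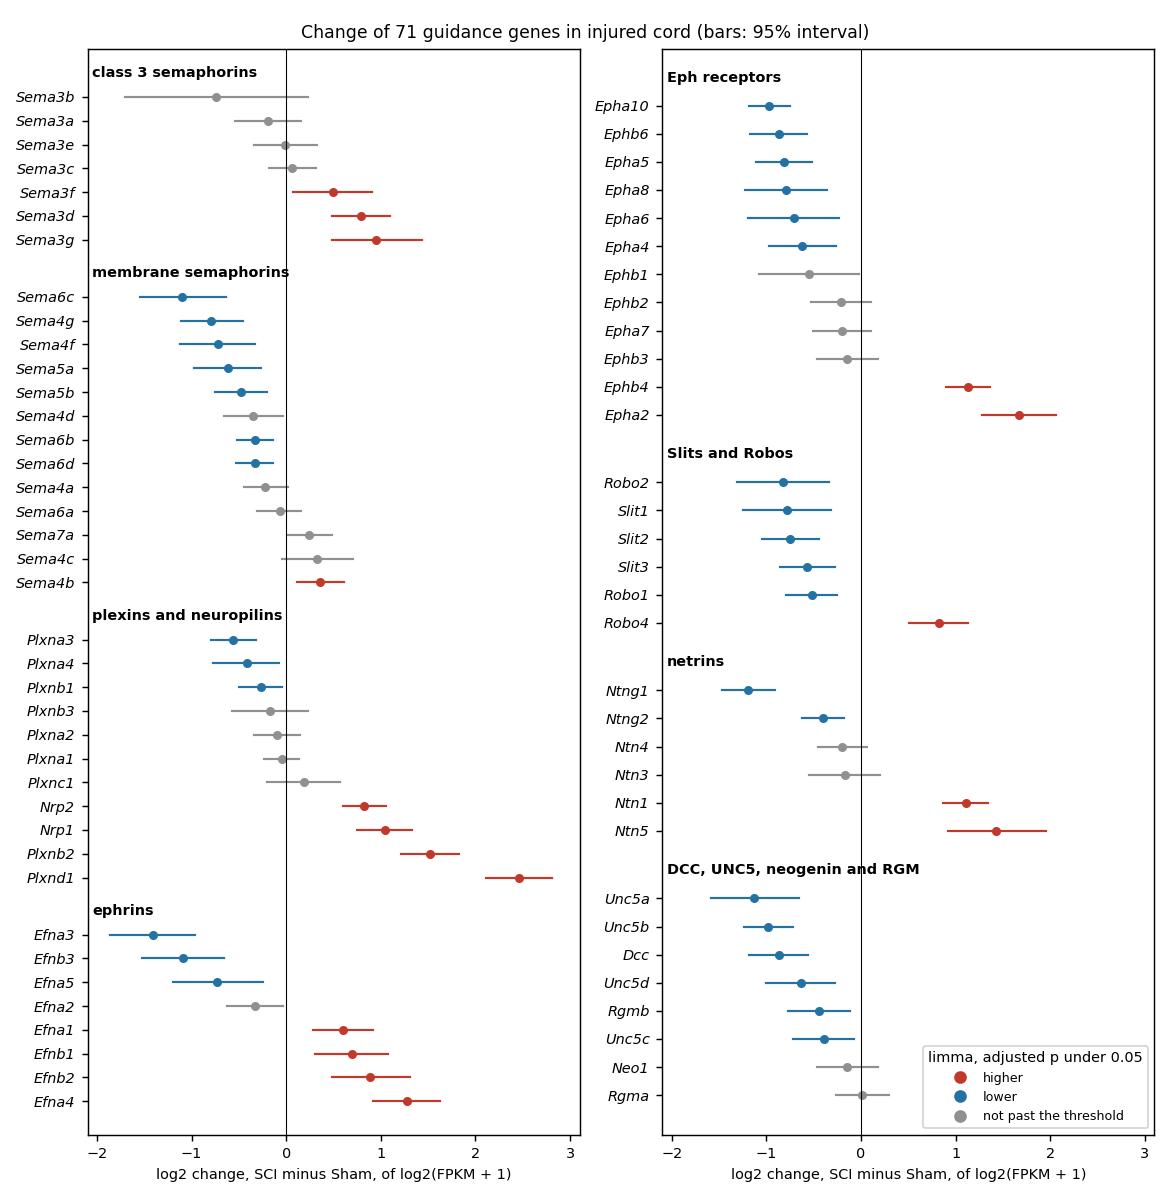
Log2 change of each tested guidance gene (x axis, SCI minus sham on log2(FPKM + 1)), grouped by family, with points for the estimate and bars for limma's 95% interval. Red and blue mark the 17 genes that were higher and the 32 that were lower at an adjusted p under 0.05, and grey the 22 that did not pass; the UNC5 receptors and Slits lie to the left of 0 and Plxnd1 (2.46) farthest to the right.

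The tissue was measured whole, so fewer cells of a type and less RNA per cell cannot be told apart. Marker sums of several cell types moved with the groups. The 10 neuronal markers reached sums of 5218 to 6062 FPKM in the sham group and 1686 to 2939 in the injured group, with 9 of 10 lower and a median log2 change of −1.15. The 7 endothelial markers reached sums of 101.3 to 116.8 FPKM in the sham group and 263.9 to 304.0 in the injured group, with 7 of 7 higher and a median of 1.08. Microglial markers went from 201.8 to 214.2 up to 695.3 to 895.3 (7 of 7 higher), those of monocyte-derived macrophages from 125.5 to 171.8 up to 1537 to 2599 (7 of 7 higher), and those of fibroblasts and meninges from 55.6 to 122.0 up to 330.2 to 669.8 (7 of 8 higher). Schwann cell markers, which nerve roots carry, went from 1315 to 2747 down to 695.1 to 790.5 (5 of 6 lower). Those of mature oligodendrocytes went from 7344 to 7990 down to 4566 to 5865 (5 of 8 lower, 1 higher). Motor neuron markers went from 109.5 to 142.2 down to 12.3 to 27.5 (5 of 6 lower), and neutrophil markers from 14.3 to 38.8 up to 129.0 to 591.9 (5 of 5 tested higher). The sum of astrocyte markers went from 2231 to 2432 up to 3814 to 4024, although only 3 of 7 were higher and 4 were lower. Gfap carried this rise, with a mean of 640.6 in sham and 2781.0 in SCI libraries, while Aldoc fell from 1093.6 to 548.8. Markers of oligodendrocyte precursors went from 124.1 to 136.3 up to 152.3 to 171.3 (4 of 6 higher). No marker of these 11 lists was at 0 in all libraries of a group. Their part in the changes of the guidance genes was not tested.

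Of the 7 secreted class 3 semaphorins, 3 were higher (42.9%), 4 did not pass and none fell. Over all genes tested 26.7% were higher and 30.8% lower. Sema3g, a ligand of neuropilins made by vessel walls, measured 7.95, 5.58 and 7.06 FPKM in sham replicates 1, 2 and 3 and 12.37, 19.35 and 11.64 in SCI replicates 1, 2 and 3 (the order used throughout). Every SCI library lay above every sham library, and the mean rose 2.11-fold from 6.86 ± 1.2 to 14.5 ± 4.26 (SD, n = 3 per group). Sema3d, a repellent that acts in neural crest and vessel development, stood at 2.91, 2.43 and 3.37 FPKM across the sham group and at 6.2, 5.09 and 5.91 across the SCI group. It rose 1.97-fold without overlap. In limma the log2 changes were 0.95 for Sema3g (SE 0.20, adjusted p = 0.0059) and 0.79 for Sema3d (SE 0.13, adjusted p = 0.0021).

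Sema3a, the first-described axon-repelling semaphorin, did not pass. Its values were 2.80, 3.47 and 2.94 FPKM in sham and 3.05, 2.02 and 2.67 in SCI libraries, which overlap (log2 change −0.19, 95% interval −0.54 to 0.16, limma adjusted p = 0.30). Sema3c (9.80 ± 0.904 and 10.3 ± 0.866 in sham and SCI, SD, n = 3) and Sema3e (2.55 ± 0.248 and 2.55 ± 0.471) overlapped as well. Their 95% intervals were −0.18 to 0.31 and −0.34 to 0.32 on the log2 scale. Sema3f, a ligand of Nrp2, was called higher at the edge of the threshold (log2 change 0.49, limma adjusted p = 0.0499) although SCI replicate 3, at 5.74 FPKM, lay below sham replicate 1, at 6.02. Sema3f lost its call when sham replicate 2 (0.37) or 3 (0.49) or SCI replicate 1 (0.36) or 2 (0.46) was left out, and under 6 further settings.

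Sema3b, a class 3 member whose gene lies 72.3 kb from Sema3f on chromosome 9, was the most abundant of the class in sham and had the largest SD in both groups. It had 39.40, 15.68 and 36.10 FPKM in the sham libraries and 13.23, 28.01 and 12.08 in the injured ones. In each group replicate 2 departed from the other 2, downward in sham and upward in SCI. Sham replicate 2 also had the lowest sham sums of Schwann cell markers (1315 against 2729 and 2747 FPKM) and of fibroblast and meningeal markers (55.6 against 122.0 and 117.7). SCI replicate 2 had the highest SCI sums of the same lists (790.5 and 669.8). The part of these cells in the Sema3b values was not tested. Sema3b did not pass (log2 change −0.74, SE 0.41, limma adjusted p = 0.16), and it did pass as lower without sham replicate 2 (−1.14, adjusted p = 0.033) or without SCI replicate 2 (−1.10, adjusted p = 0.045).

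**Figure D2:**
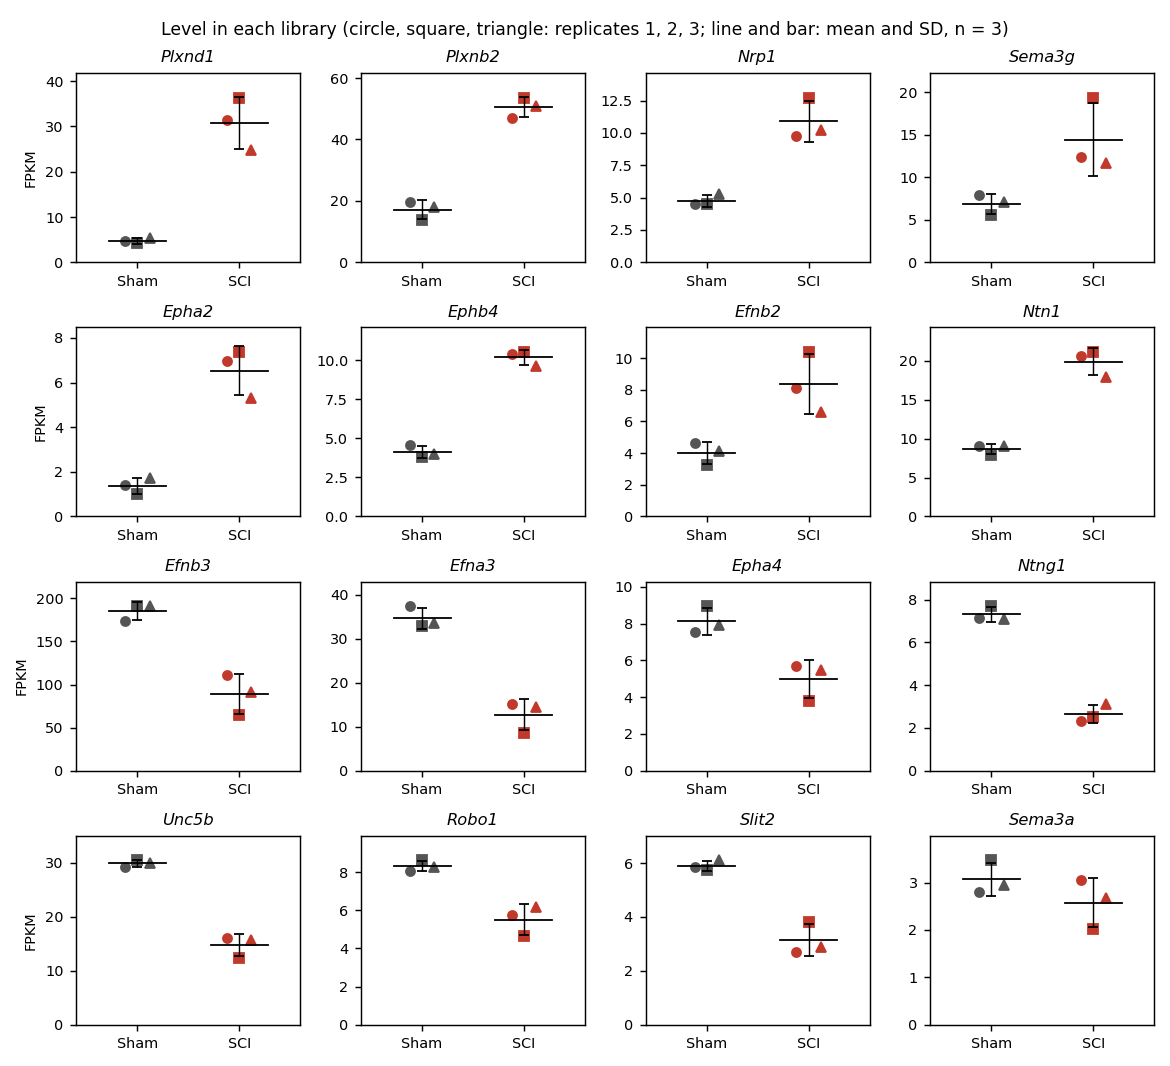
FPKM (y axis, from 0) of 16 guidance genes in each library, with circles, squares and triangles for replicates 1, 2 and 3 of the sham (grey) and SCI (red) groups and a line and bar for mean and SD. The first 8 panels, from Plxnd1 to Ntn1, show SCI libraries above all sham libraries, the next 7 show them below, and Sema3a overlaps.

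Membrane-bound semaphorins of classes 4 to 7 were more often lower than higher. Of the 13, 7 were lower (53.8%), 1 was higher (7.69%) and 5 did not pass, beside 30.8% lower and 26.7% higher of all genes tested. Their median log2 change was −0.33. Sema6c measured 14.44, 8.51 and 12.07 FPKM in the sham replicates and 5.57, 3.96 and 5.02 after injury, a 2.41-fold fall with no overlap (log2 change −1.10, SE 0.19, limma adjusted p = 0.0027). Class 6 semaphorins are transmembrane ligands of class A plexins. Sema4g, a class 4 member, stood at 12.17, 9.00 and 11.23 FPKM across the sham group and at 6.10, 4.96 and 6.41 across the SCI group, a 1.85-fold fall (log2 change −0.79, SE 0.14, limma adjusted p = 0.0026).

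Both class 5 members fell, Sema5a by 0.62 and Sema5b by 0.48 on the log2 scale, and so did Sema4f (−0.72), Sema6b (−0.33) and Sema6d (−0.33). Sema6a (−0.07) and Sema4a (−0.22) did not pass, although Sema4a did without SCI replicate 2 (−0.29). Sema4b was the one member that rose, from 6.46, 5.31 and 6.49 FPKM to 8.35, 8.39 and 7.48 (1.33-fold, log2 change 0.36, SE 0.11, limma adjusted p = 0.024). Leaving out sham replicate 2 (0.28), SCI replicate 1 (0.34) or SCI replicate 2 (0.33) ended that call, as did quantile normalization (0.26). Sema4c (0.33, and 0.14 without sham replicate 2) did not pass although its SCI libraries all lay above the sham ones.

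The 2 most abundant membrane semaphorins were near the threshold and on opposite sides of 0. Sema7a, a lipid-anchored semaphorin that binds Plxnc1 and integrins, had 85.40, 99.63 and 93.67 FPKM in the sham libraries and 112.94, 119.58 and 97.85 in the injured ones. Sham replicate 2 lay above SCI replicate 3, and the change did not pass (log2 change 0.24, SE 0.10, limma adjusted p = 0.075). It passed without SCI replicate 3 (0.32). Sema7a supplied 26.9% ± 3.71 of all semaphorin FPKM in sham and 33.9% ± 1.89 in SCI libraries (SD, n = 3). Sema4d, the oligodendrocyte and leukocyte semaphorin that binds class B plexins, measured 32.88, 35.76 and 36.65 FPKM in the sham replicates and 29.36, 22.02 and 31.56 after injury (log2 change −0.35, SE 0.13, limma adjusted p = 0.060). All SCI values lay below the sham values, and Sema4d passed without SCI replicate 3 (−0.45). Without SCI replicate 2 its change was −0.20 and did not pass.

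Among semaphorin receptors, both neuropilins and 2 plexins rose while plexins of class A did not. Of these 11 genes 36.4% were higher and 27.3% lower, beside 26.7% and 30.8% of all genes tested. Plxnd1, the plexin of endothelium and macrophages and a direct receptor of Sema3e, stood at 4.60, 4.22 and 5.38 FPKM across the sham group and at 31.32, 36.30 and 24.86 across the SCI group. This was the largest log2 change of all tested guidance genes (2.46, SE 0.15, limma adjusted p = 3.1e-05), a 6.51-fold rise. Plxnb2, a plexin of microglia, macrophages and progenitors, had 19.51, 13.75 and 18.12 FPKM in the sham libraries and 47.01, 53.53 and 50.75 in the injured ones. It rose 2.94-fold (log2 change 1.52, SE 0.13, limma adjusted p = 1.3e-04), and neither gene's groups overlapped.

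Nrp1, which class 3 semaphorins share with VEGF, rose from 4.47, 4.52 and 5.28 FPKM to 9.75, 12.71 and 10.22 (2.29-fold). Nrp2 rose from 10.36, 9.30 and 10.31 to 17.19, 20.51 and 17.76 (1.85-fold). The limma log2 changes were 1.04 for Nrp1 (SE 0.12, adjusted p = 5.0e-04) and 0.82 for Nrp2 (SE 0.10, adjusted p = 4.8e-04). Both were higher in all 3 SCI libraries than in any sham library. Values of endothelial and phagocyte markers that rose in the same libraries are given above.

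Class A plexins, the signalling partners of neuropilins in neurons, had 2 of 4 lower and none higher. Over all genes tested 30.8% were lower and 26.7% higher. Plxna3 went from 11.60, 9.91 and 11.95 FPKM to 6.99, 7.11 and 7.62 (1.54-fold lower, log2 change −0.56, SE 0.10, limma adjusted p = 0.0028). Plxna4 went from 10.59, 10.30 and 9.87 to 8.14, 5.67 and 8.66 (log2 change −0.42, SE 0.15, limma adjusted p = 0.041). Leaving out sham replicate 1, 2 or 3 (−0.40, −0.42 and −0.45) or SCI replicate 1 (−0.49) ended the call on Plxna4. It did not pass with the replicate number as a block either (limma adjusted p = 0.0503), and its size without SCI replicate 2 was −0.26. An antisense transcript of this gene, Plxna4os1, was not counted as a member and was not tested, with 0.13 to 0.34 FPKM in the sham group and 0.74 to 1.29 after injury. Plxna1 (19.3 ± 0.675 and 18.6 ± 0.917 in sham and SCI, SD, n = 3) and Plxna2 (10.3 ± 0.414 and 9.61 ± 1.2) overlapped, with log2 changes of −0.05 (95% interval −0.23 to 0.13) and −0.10 (−0.34 to 0.15).

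Plxnb1, the Sema4d receptor, had the highest mean of the plexins in sham, at 33.91, 28.16 and 33.38 FPKM (Plxnb3 overlapped it), and stood at 25.30, 24.93 and 27.99 in SCI libraries (log2 change −0.27, SE 0.10, limma adjusted p = 0.044). This call was lost when sham replicate 1 (−0.23) or 3 (−0.24) or SCI replicate 1 (−0.25) or 2 (−0.24) was left out, and under median-ratio scaling (−0.19). Plxnb3 of oligodendrocytes (−0.17) and Plxnc1 (0.19) did not pass. Plxnc1 was highest in SCI replicate 3 (7.70, against 5.32 and 5.65 FPKM), the library with high Avil and Scn10a. The part of sensory ganglion neurons in this value was not tested. The order of the plexins changed with injury: Plxnb2 and Plxnd1 together made up 15.6% ± 1.45 of plexin FPKM in sham and 44.5% ± 4.99 in SCI libraries (SD, n = 3), and the plexin sum went from 139.3 ± 9.41 to 182.9 ± 3.41 FPKM.

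The ephrins split within both subclasses. Of 8 ephrins, 4 rose, 3 fell and Efna2 did not pass (−0.33, limma adjusted p = 0.063). The shares over all genes tested were 26.7% higher and 30.8% lower. Efna4, among the 4, met the filter through the SCI group only, so that its rise is a description. Efna2 did pass under quantile normalization (−0.44), and without sham replicate 1 its change was −0.21. Efnb3, the midline ephrin that acts through Epha4 and is carried by myelin in the adult, was the most abundant guidance gene in the sham cord, at 173.35, 190.98 and 190.98 FPKM. It was at 110.84, 64.17 and 91.21 in SCI libraries, a 2.09-fold fall with no overlap (log2 change −1.09, SE 0.18, limma adjusted p = 0.0022). Efnb3 made up 75.4% ± 2.58 of ephrin FPKM in sham and 65.1% ± 4.08 in SCI libraries (SD, n = 3), and the ephrin sum went from 245.5 ± 5.38 to 135.1 ± 28.

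The other B ephrins rose. Efnb2, the arterial ephrin and ligand of Ephb4, measured 4.66, 3.24 and 4.13 FPKM in the sham replicates and 8.10, 10.38 and 6.59 after injury (2.08-fold, log2 change 0.89, SE 0.18, limma adjusted p = 0.0044). Efnb1 rose 1.77-fold, from 3.41 ± 0.926 to 6.02 ± 0.601 (SD, n = 3, log2 change 0.69). Among the A ephrins, Efna5 fell from 7.29, 5.95 and 7.76 to 4.95, 2.57 and 4.26 (log2 change −0.73, limma adjusted p = 0.018). The call on Efna5 ended without sham replicate 1 (−0.70) or sham replicate 3 (−0.66).

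Efna1, Efna3 and Efna4 are neighbours on the minus strand of chromosome 3 in GRCm38, with gaps of 32.8 and 10.4 kb between them, and they did not move together. Efna3, at chr3:89313899-89322965 between the other two, stood at 37.43, 33.01 and 33.50 FPKM across the sham group and at 15.22, 8.65 and 14.37 across the SCI group. Its 2.72-fold fall was the largest of the guidance genes on the log2 scale (−1.41, SE 0.19, limma adjusted p = 9.4e-04). Efna4, at chr3:89333390-89338028, had 0.27, 0.41 and 0.18 FPKM in the sham libraries and 1.9, 2.35 and 2.09 in the injured ones (log2 change 1.28, with every sham value under the 1 FPKM of the filter, so that its test is not used). Efna1, at chr3:89271733-89281142 and a high-affinity ligand of Epha2, measured 5.59, 6.40 and 5.07 FPKM in the sham replicates and 10.35, 7.61 and 9.56 after injury (log2 change 0.60, SE 0.14, limma adjusted p = 0.0075). The groups of Efna1 and Efna3 did not overlap. Those of Efna4 could not overlap, as it met the filter through the SCI group only. Transcripts on the opposite strand overlap Efna3 (Gm15998, mean 1.26 FPKM) and Efna4 (4731419I09Rik, mean 1.76 FPKM), and the strand setting of the quantification is not given in the sources used here, so their reads could be shared.

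**Figure D3:**
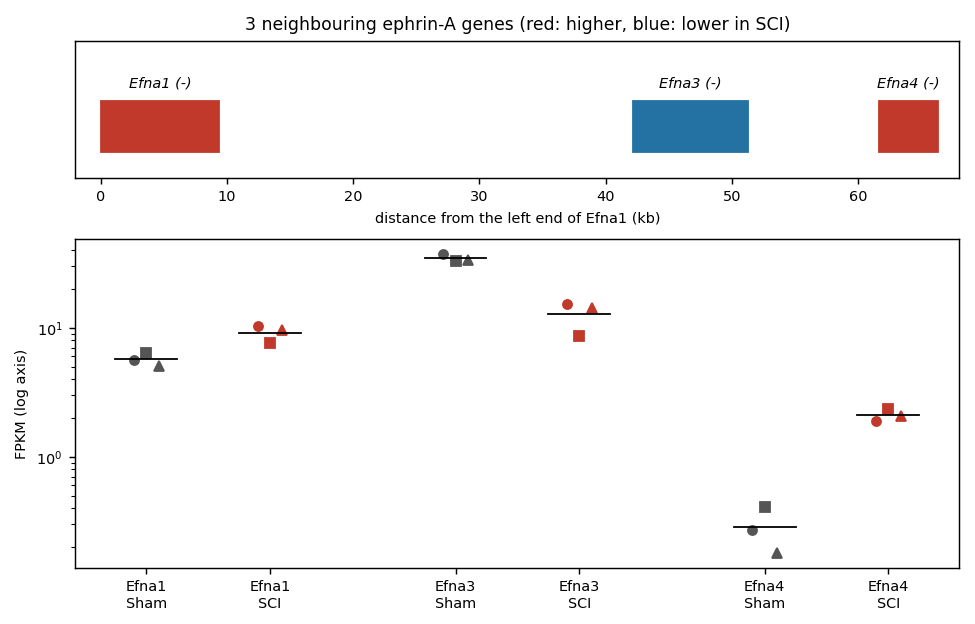
Upper panel: the 3 neighbouring ephrin-A genes drawn to scale by distance in kb from the left end of Efna1, red where higher and blue where lower in SCI. Lower panel: FPKM on a log axis in each library (circle, square and triangle for replicates 1, 2 and 3, line for the mean), where the outer genes Efna1 and Efna4 go up and Efna3 between them goes from a mean of 34.6 to 12.7. Efna4 met the filter through the SCI group only, so its colour is a description.

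The RefSeq start regions of these 3 genes are shown because the genes are neighbours with opposite changes, together with that of Plxnd1, the gene with the largest rise. Each runs 5′ to 3′ on the gene's own strand from 250 bases before to 50 bases after the start nearest the gene's 5′ end (191 bases from it for Efna1, 26 for Efna3) in GRCm38.p6, at chr3:89280902-89281201, chr3:89322890-89323189, chr3:89337979-89338278 and chr6:115994956-115995255 in the order printed, all on the minus strand. Capitals mark matches, on either strand, to any of 6 motifs: GC box (GGGCGG), AP-1 (TGANTCA), CRE (TGACGTCA), E-box (CACGTG), STAT (TTCNNNGAA) and ETS (CCGGAA).
Efna1: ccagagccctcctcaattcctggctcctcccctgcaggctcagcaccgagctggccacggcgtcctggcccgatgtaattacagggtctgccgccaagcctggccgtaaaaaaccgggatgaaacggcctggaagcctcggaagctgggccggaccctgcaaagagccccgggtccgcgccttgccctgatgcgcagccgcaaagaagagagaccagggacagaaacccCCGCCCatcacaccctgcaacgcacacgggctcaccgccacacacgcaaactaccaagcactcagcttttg
Efna3: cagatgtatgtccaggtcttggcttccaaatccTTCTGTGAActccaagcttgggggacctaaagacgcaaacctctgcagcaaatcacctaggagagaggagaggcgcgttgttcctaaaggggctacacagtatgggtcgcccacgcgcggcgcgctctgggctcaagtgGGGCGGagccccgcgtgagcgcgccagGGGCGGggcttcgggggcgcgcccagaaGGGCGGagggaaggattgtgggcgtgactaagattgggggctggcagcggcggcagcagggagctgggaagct
Efna4: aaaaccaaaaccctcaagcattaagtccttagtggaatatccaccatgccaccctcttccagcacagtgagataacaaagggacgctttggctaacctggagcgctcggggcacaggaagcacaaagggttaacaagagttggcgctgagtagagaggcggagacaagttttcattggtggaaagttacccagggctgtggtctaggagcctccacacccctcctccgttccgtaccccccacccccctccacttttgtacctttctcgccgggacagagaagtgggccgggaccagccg
Plxnd1: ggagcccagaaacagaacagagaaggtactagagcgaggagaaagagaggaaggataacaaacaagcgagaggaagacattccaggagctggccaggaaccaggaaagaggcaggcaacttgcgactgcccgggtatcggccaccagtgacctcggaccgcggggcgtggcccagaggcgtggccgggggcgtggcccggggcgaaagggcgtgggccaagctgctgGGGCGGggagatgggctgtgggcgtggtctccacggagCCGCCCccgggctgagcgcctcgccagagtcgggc
The Efna1 window held 1 GC box, the Efna3 window 3 GC boxes and 1 STAT match, the Efna4 window no match to any of the 6 letters searched, and the Plxnd1 window 2 GC boxes. GC content was 63.7%, 64.0%, 55.7% and 67.0%, and CpG pairs numbered 20, 22, 11 and 23. No match says only that these letters are not in this window.

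A start region was found for 64 of the 75 guidance genes, 1 per gene. A GC box was present in 10 of 15 (66.7%) that rose, 21 of 27 (77.8%) that fell and 13 of 18 (72.2%) that did not pass, against 49.4% of the 17670 genes with such a region. The median GC content was 63.7%, 67.7% and 66.8% in these sets and 57.3% over all, and the median CpG number was 14, 27, 23 and 15. AP-1 matches occurred in 1 of the 64 (6.67% of all genes) and STAT matches in 3 (7.65% of all genes). ETS matches occurred in 6 of the 64 (9.38%, against 20.3% of all genes). The ETS letters on the other strand (TTCCGG) can lie within a STAT match, and a match is a description and not a binding site. The 17670 genes were not limited to those that passed the FPKM filter, unlike the guidance genes that rose, fell or did not pass. The sets compared are therefore unlike.

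Eph receptors were more often lower than higher. Of 12 tested, 6 fell, 2 rose and 4 did not pass, beside 30.8% lower and 26.7% higher of all genes tested. Their median log2 change was −0.59. Epha6, among the 6, met the filter through the sham group only and so had to be lower. Epha4, the receptor through which B and A ephrins repel corticospinal axons, stood at 7.53, 8.95 and 7.90 FPKM across the sham group and at 5.70, 3.79 and 5.47 across the SCI group. All SCI values lay below the sham values, a 1.63-fold fall (log2 change −0.62, SE 0.15, limma adjusted p = 0.010). Epha10, which lacks kinase activity, went from 23.37, 22.26 and 21.67 to 11.36, 9.82 and 11.86 (2.04-fold lower, log2 change −0.97, SE 0.09, limma adjusted p = 2.0e-04). Ephb6, the other kinase-dead member, was the most abundant Eph gene and went from 40.92, 31.83 and 35.90 to 20.47, 16.53 and 21.14 (1.87-fold lower, log2 change −0.87, SE 0.13, limma adjusted p = 0.0012).

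Epha5, Epha8 and Epha6 fell by 0.82, 0.79 and 0.71 on the log2 scale. Epha6 met the filter through the sham group only, so that its call is a description. That call, at 1.98 ± 0.722 and 0.800 ± 0.210 FPKM (SD, n = 3), ended without sham replicate 3 (−0.51) or SCI replicate 2 (−0.61). Epha7 (−0.20), Ephb2 (−0.21) and Ephb3 (−0.15) did not pass and overlapped. Ephb1, the second most abundant Eph gene, had 23.22, 25.61 and 24.83 FPKM in the sham libraries and 21.56, 10.75 and 19.01 in the injured ones. All SCI values were below sham but SCI replicate 2 was far below the other 2, and the change did not pass (log2 change −0.55, SE 0.23, limma adjusted p = 0.073). Ephb1 did pass without SCI replicate 1 (−0.74) and without SCI replicate 2, where its size was −0.27 (adjusted p = 0.031). Epha1 (0.21 to 0.96 FPKM in sham, 0.55 to 0.74 in SCI) and Epha3 (0.45 to 0.66 and 0.49 to 0.95) were too low to test.

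The 2 Eph receptors that rose were Epha2 and Ephb4. Epha2, a receptor of epithelia and endothelium whose chief ligand is ephrin-A1, measured 1.41, 0.99 and 1.71 FPKM in the sham replicates and 6.96, 7.37 and 5.29 after injury. It rose 4.77-fold (log2 change 1.67, SE 0.17, limma adjusted p = 2.5e-04). Ephb4, the venous receptor of ephrin-B2, stood at 4.56, 3.79 and 3.98 FPKM across the sham group and at 10.37, 10.52 and 9.65 across the SCI group, a 2.48-fold rise (log2 change 1.13, SE 0.10, limma adjusted p = 1.4e-04). Together these receptors made up 4.62% ± 0.355 of Eph receptor FPKM in sham and 20.4% ± 4.30 in SCI libraries (SD, n = 3), while the Eph sum went from 118.5 ± 4.65 to 83.5 ± 11.0.

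All 3 Slits fell, and so did Robo1 and Robo2. Of the 6 tested genes of this family 83.3% were lower and 16.7% higher, beside 30.8% and 26.7% of all genes tested. Slit2, the midline repellent, had 5.84, 5.76 and 6.10 FPKM in the sham libraries and 2.69, 3.83 and 2.90 in the injured ones. It fell 1.88-fold with no overlap (log2 change −0.75, SE 0.13, limma adjusted p = 0.0024), and, unlike most falling members, it was highest in SCI replicate 2. Slit1 went from 17.46, 11.32 and 15.87 to 9.33, 6.14 and 9.17 (log2 change −0.78, SE 0.20, limma adjusted p = 0.012). Slit3 went from 3.78 ± 0.101 to 2.23 ± 0.342 (SD, n = 3, log2 change −0.57).

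Robo1, the main Slit receptor with Robo2, measured 8.08, 8.62 and 8.26 FPKM in the sham replicates and 5.75, 4.63 and 6.17 after injury, a 1.51-fold fall (log2 change −0.52, SE 0.11, limma adjusted p = 0.0067). Robo2 went from 8.95, 7.77 and 9.17 to 5.69, 2.87 and 5.15 (1.89-fold lower, log2 change −0.83, SE 0.21, limma adjusted p = 0.012). Robo4, the Robo of endothelium, went the other way, from 5.23, 5.03 and 4.29 to 10.59, 9.73 and 7.76 (1.93-fold higher, log2 change 0.82, SE 0.13, limma adjusted p = 0.0019). Robo4 thus made up 21.6% ± 2.33 of Robo FPKM in sham and 47.7% ± 7.90 in SCI libraries (SD, n = 3), with a sum of 22.4 ± 0.39 and 19.7 ± 2.53. Robo3, whose gene ends 0.553 kb from the end of Robo4 on chromosome 9, was not tested, with 0.43, 0.58 and 0.94 in the sham group and 0.40, 0.18 and 0.27 after injury.

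Of the secreted netrins Ntn1 and Ntn5 rose and Ntn3 and Ntn4 did not pass, while both netrin-G genes fell. Ntn1, the attractant of commissural axons, stood at 9.10, 7.95 and 9.01 FPKM across the sham group and at 20.57, 21.12 and 17.90 across the SCI group. It rose 2.29-fold with no overlap (log2 change 1.11, SE 0.10, limma adjusted p = 1.5e-04), and its share of secreted netrin FPKM went from 56.4% ± 1.09 to 71.6% ± 0.998 (SD, n = 3). Ntn5, a small netrin-like gene known at the boundary where motor axons leave the cord, had 0.23, 0.18 and 0.34 FPKM in the sham libraries and 2.13, 3.56 and 1.68 in the injured ones (log2 change 1.43). It met the filter through the SCI group only, so that its test is not used, and its ratio of 9.83-fold rests on sham values under 1 FPKM. Ntn4 of basement membranes (−0.20; −0.31 and lower under quantile normalization) and Ntn3 (−0.17) did not pass, and Ntn3 overlaps Tbc1d24 on the same strand.

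Netrin-G proteins are lipid-anchored on axons and bind synaptic adhesion partners instead of DCC. Ntng1 measured 7.15, 7.70 and 7.09 FPKM in the sham replicates and 2.32, 2.52 and 3.13 after injury (2.75-fold lower, log2 change −1.19, SE 0.12, limma adjusted p = 2.3e-04). Ntng2 went from 8.11, 9.01 and 7.74 to 6.09, 5.76 and 6.21 (1.38-fold lower, log2 change −0.40, SE 0.09, limma adjusted p = 0.0090). In both genes all SCI libraries lay below all sham libraries. On chromosome 2, 6530402F18Rik (mean 4.52 FPKM) overlaps Ntng2 on the same strand.

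Most netrin receptors fell. Of the 6 (Dcc, Neo1 and the 4 UNC5 genes), 5 were lower (83.3%) and none higher, beside 30.8% and 26.7% of all genes tested. Their median log2 change was −0.76. Unc5b, the UNC5 receptor of vessels and of many neurons, stood at 29.28, 30.47 and 29.92 FPKM across the sham group and at 16.09, 12.36 and 15.79 across the SCI group (2.03-fold lower, log2 change −0.98, SE 0.11, limma adjusted p = 3.8e-04). Unc5a went from 18.64, 17.60 and 17.18 to 8.73, 5.14 and 9.68 (2.27-fold lower, log2 change −1.13, SE 0.20, limma adjusted p = 0.0027). Dcc, the attractive receptor, went from 3.40 ± 0.217 to 1.42 ± 0.240 (SD, n = 3, log2 change −0.87, limma adjusted p = 0.0014). The sum of the UNC5 genes went from 54.9 ± 0.515 to 27.0 ± 5.34.

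Unc5d fell by 0.64 and Unc5c by 0.39 on the log2 scale. The call on Unc5c (limma adjusted p = 0.043) ended without sham replicates 1, 2 or 3 (−0.42, −0.40 and −0.36), SCI replicate 2 (−0.29) or SCI replicate 3 (−0.40), and with the replicate block (adjusted p = 0.073). Neo1, or neogenin, which binds netrins and RGM proteins, had 28.52, 27.31 and 30.72 FPKM in the sham libraries and 29.95, 20.82 and 28.01 in the injured ones. Those values overlap (log2 change −0.15, 95% interval −0.47 to 0.18, and 0.01 without SCI replicate 2). Rgma, the repulsive neogenin ligand, did not pass at 15.2 ± 0.661 and 15.5 ± 2.34 FPKM (SD, n = 3, log2 change 0.01, 95% interval −0.26 to 0.29). Rgmb was lower (−0.44, limma adjusted p = 0.027), a call that ended without any 1 of sham replicates 1, 2 and 3 (−0.42, −0.48 and −0.43). Without SCI replicate 2 the size of the Rgmb change was −0.29. Draxin, a secreted DCC ligand, was at 0.54 to 0.85 in the sham group and 0.31 to 0.70 in the injured group.

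Set side by side, ligands and receptors known to bind each other were both called in the same direction in 9 of 20 pairs. Of all single genes tested, 26.7% were called higher and 30.8% lower. These pairs were chosen from textbook knowledge with earlier results of these data known, and they share genes (18 ligands and 18 receptors), so they are a description with no test. Both rose in 4 pairs: Efnb2 with Ephb4, Efna1 with Epha2, and Nrp2 with Sema3g and with Sema3f. Both fell in 5, which were Slit2 with Robo1, Slit1 with Robo2, Efnb3 with Epha4, and Efna5 with Epha4 and with Epha5. The pairs with Sema3f or Efna5 rest on calls that ended in 10 and 2 of the alternative settings. Ntn1 rose while Dcc and Unc5b fell, the 2 pairs with opposite calls. In 3 pairs the receptor rose and the ligand did not pass: Nrp1 with Sema3a, Plxnd1 with Sema3e and Plxnb2 with Sema4c. Sema3e stayed at a mean of 2.55 FPKM in both groups beside Plxnd1 at 4.73 and 30.8.

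**Figure D4:**
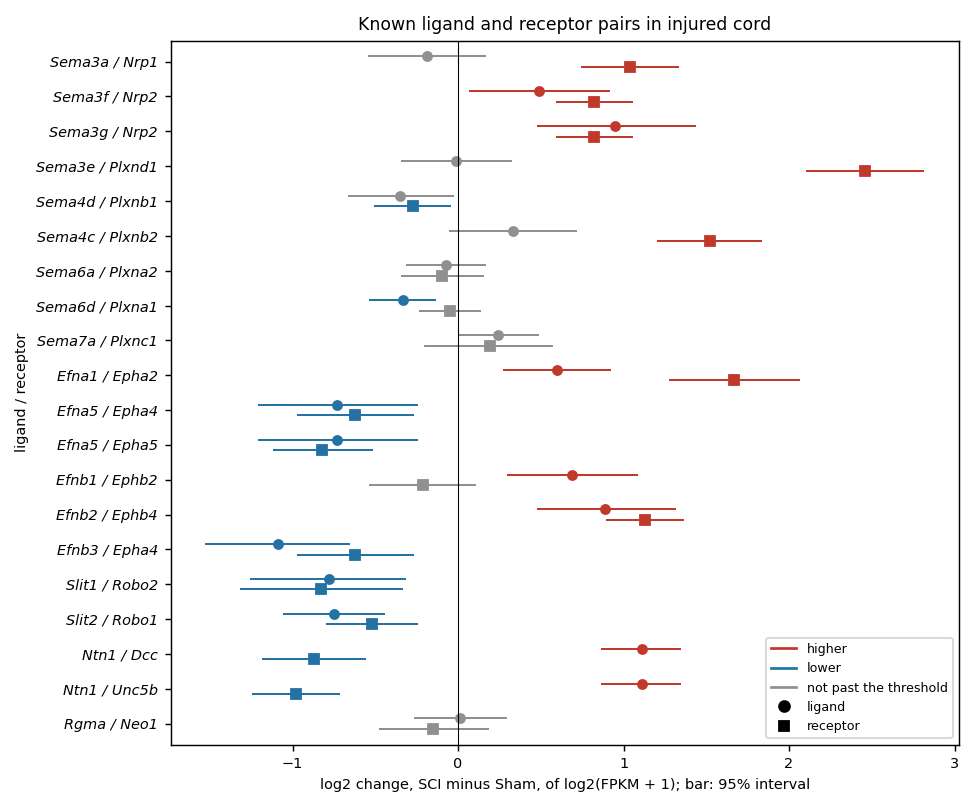
Log2 change (x axis, SCI minus sham on log2(FPKM + 1)) of the ligand (circle) and the receptor (square) in 20 known pairs, with limma's 95% interval as bars. Red is higher, blue lower and grey not past the threshold; the Slit and Robo pairs lie wholly in blue, Efnb2 and Ephb4 wholly in red, and Ntn1 (1.11) stands opposite Dcc (−0.87) and Unc5b (−0.98).

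The injured libraries differed in how far the guidance genes departed from sham. Of the 32 members that fell, 26 were lowest in SCI replicate 2, 5 in SCI replicate 1 and 1 in SCI replicate 3. Of the 17 that rose, 12 were highest in SCI replicate 2 and none in SCI replicate 3. This order was not counted over all genes tested, so it is not shown to be particular to guidance genes. The median-ratio size factor of SCI replicate 2 was 0.912, against 1.01 and 1 for SCI replicates 1 and 3. Haemoglobin took 6.16% of its FPKM, and the part of either in the order was not tested. SCI replicate 2 also had all 10 neuronal markers at their lowest and 5 of 7 microglial and 5 of 7 macrophage markers at their highest among the SCI libraries. Without SCI replicate 2 the counts were 15 higher and 32 lower, and without SCI replicate 3 they were 18 and 32. The 10 neuronal markers had log2 changes of −2.0 to −0.59, and the 32 members that fell had changes of −1.41 to −0.27.

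**Figure D5:**
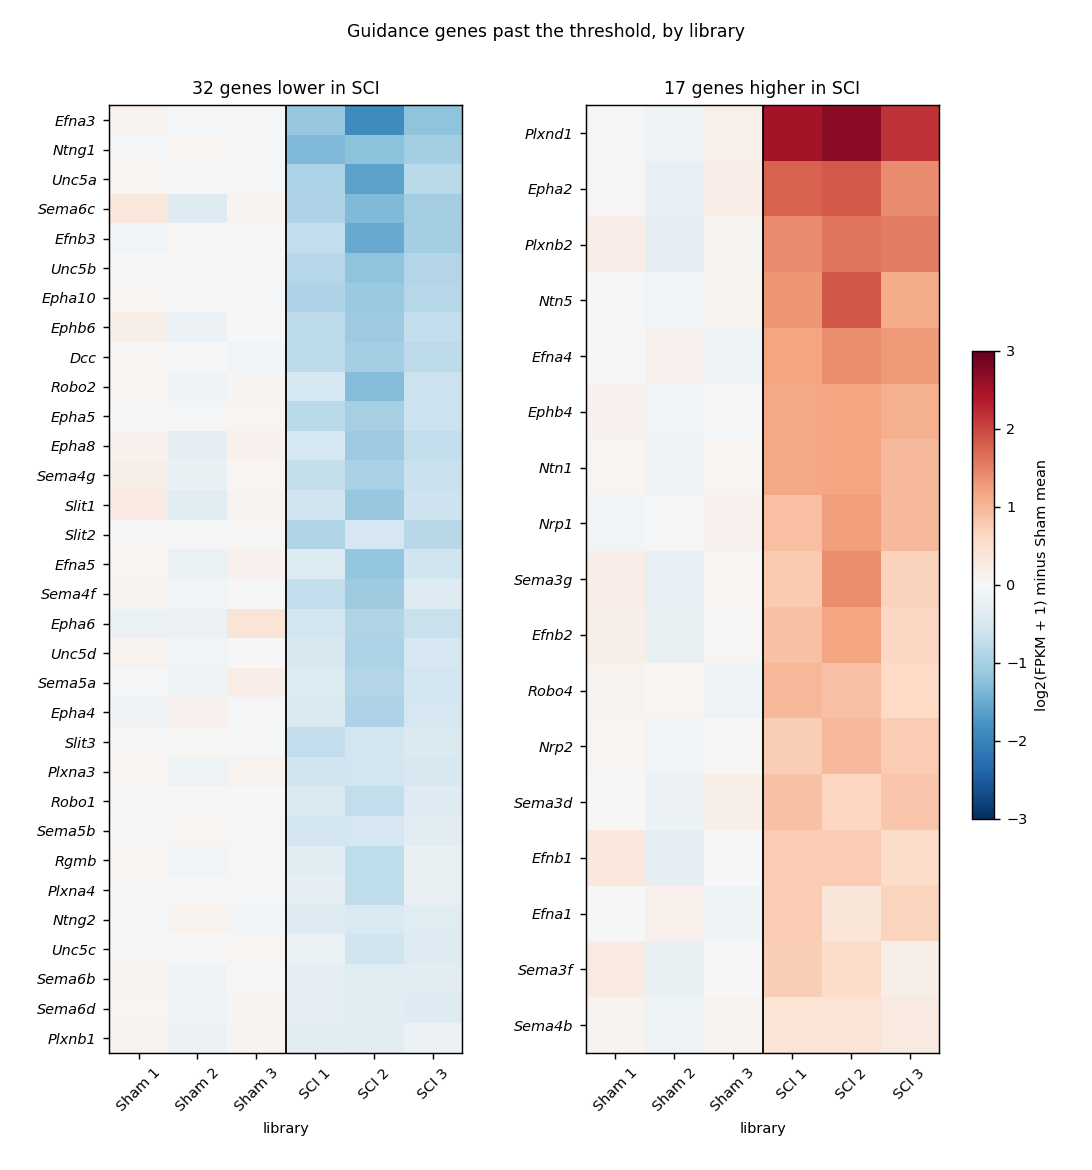
Heat maps of the 32 guidance genes lower and the 17 higher in SCI (rows) in each library (columns), coloured by log2(FPKM + 1) minus the sham mean. SCI replicate 2 is the bluest SCI column for 26 of the 32 and the reddest for 12 of the 17.

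Genes that carry the guidance signal inside cells went both ways. Of 24 genes of semaphorin signalling, 8 were higher (33.3%), 11 lower (45.8%) and 5 did not pass, beside 26.7% and 30.8% of all genes tested. Fes, a kinase of plexin signalling and of myeloid cells, had a log2 change of 2.08, Cd72, a Sema4d receptor of immune cells, one of 3.26 and the integrin Itgb1, which binds Sema7a, one of 1.79. The CRMP genes Crmp1 (−0.70), Dpysl2 (−0.73), Dpysl4 (−0.69) and Dpysl5 (−0.76), which link semaphorins to microtubules in neurons, fell, while Dpysl3 rose (0.35). Of 16 genes of ephrin signalling, 3 were higher (18.8%) and 7 lower (43.8%). Among these, Chn1, the chimaerin that acts below Epha4, fell by 1.14, and Adam10, which sheds ephrins, rose by 0.75.

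Of 19 genes of Slit and netrin signalling, 4 were higher (21.1%), 7 lower (36.8%) and 8 did not pass, shares near those of all genes tested (26.7% and 30.8%). Among them were Nell2, a Robo3 ligand, at −1.50, Dscam, a netrin co-receptor, at −1.03, Srgap3 at −0.77, Dock1 at 0.94 and Vasp at 1.64. The 12 shared cytoskeletal effectors all passed, 7 higher (58.3%) and 5 lower (41.7%), beside 26.7% and 30.8% of all genes tested. Rhoa (0.98), Cdc42 (0.65), Rock1 (0.55), Pak2 (0.79) and cofilin, Cfl1 (0.65), rose, and Limk1 (−0.99) and the neuronal kinases Pak1 (−1.08) and Pak3 (−0.90) fell. The marker sums given above moved with these genes too, and their part was not tested.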

How the data were processed

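Each library came as a list of genes with FPKM given to 2 decimals by the authors, per the file headers. Tools named in the submitters' processing notes, with no roles, are HISAT2 2.0.4, StringTie 1.3.4d, cutadapt 1.9, UMI-tools, edgeR and DESeq2. The notes name build mm9, whereas the coordinates match GRCm38 (91.6% of 36502 identifiers shared with GENCODE M21 were identical). No strand setting is given in the sources used here.

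FPKM are shares of a library, so a large gain elsewhere lowers a gene, and no step of whole reads was found in them, so counting error is unknown. The 17435 genes that passed the filter were tested with limma 3.58.1 in R 4.3.3 (mean-variance trend, group as the only term, two-sided), with Benjamini-Hochberg adjustment over all of them. The pseudocount of 1 understates changes of low genes. The script was tested on simulated data. Tests of counts, considered for the case that the files held counts, were not run.

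Members, lists and pairs were chosen with earlier results of these data known. Values in every library are given by rule for Sema3a, Epha4, Slit2 and Robo1 and, in each of 8 families, for the 2 called members with the largest rise, the 2 with the largest fall and the 2 most abundant. Those of other members were added after they were seen. Of the 75 members, 13 overlap another gene of at least 1 FPKM. Start regions came from RefSeq (GRCm38.p6). Alternatives were other pseudocounts, filters, scalings and a variance model, each library left out, and a replicate block. Same-numbered libraries did not deviate together (correlations of −0.008, −0.039 and 0.022).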

Additional observations from a re-analysis of the deposited data

How the results depend on the processing

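Of the 49 guidance genes called, 41 kept their call under all 15 alternatives, and 8 (Sema3f, Sema4b, Plxna4, Plxnb1, Efna5, Epha6, Rgmb and Unc5c) lost it in at least 1, among them Plxna4, Plxnb1, Rgmb and Unc5c with no filter on low values and Unc5c under median-ratio scaling (−0.33); the cause was not tested. Efna4 and Ntn5 among the 41 and Epha6 among the 8 met the filter through 1 group only. No called gene changed direction. With any 1 library left out, 15 to 18 members were higher and 26 to 32 lower. With the replicate number as a block, 17 were higher and 30 lower, Plxna4 and Unc5c being lost. Under quantile normalization the counts were 15 and 37, under median-ratio scaling 18 and 30, and with no filter on low values 16 and 28. These scalings placed the median log2 change of all genes tested between −0.133 and 0.00283, against −0.0758 as deposited. Of the 22 that did not pass, 8 did in at least 1 setting (Sema3b, Sema4a, Sema4d, Sema7a, Efna2, Ephb1, Ephb2 and Ntn4). With 3 libraries per group and unknown depth, a change that did not pass is not shown to be absent.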
